A study of Mus musculus with 26 samples.

Results

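Neutrophil granule and alarmin genes were followed in RNA of mice with lung metastases of B16F10, a melanoma line of the C57BL/6 mouse that was given by the vein. The members were 10 genes chosen by mouse symbol: the alarmin genes S100a8 and S100a9, the granule protein genes Lcn2, Ngp, Camp, Ltf and Mmp8, the secreted hormone gene Retnlg, and the receptor genes Csf3r and Cxcr2. All 10 were found among the 55416 genes of the 2 count tables. The 6 groups were whole lung with propranolol (5 libraries) and with no treatment (5), cells sorted from such lungs by flow cytometry and labelled monocytes with propranolol (4) and with no treatment (4), and lung CD4 T cells taken with magnetic beads with propranolol (4) and with no treatment (4). Every mouse was of the strain C57BL/6 and carried the tumour, so no group is free of metastases, and the labels give no dose, duration or age. Propranolol blocks β-adrenoceptors, the receptors of adrenaline and noradrenaline. The labels of the CD4 T cell libraries write the drug once as propanol in the title and as Propranolol under treatment. Whether each library stands for its own animal is not stated there, and p-values therefore measure library spread alone, which may be technical.

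Neutrophils pack their proteins into granules in a fixed order as they mature in bone marrow: azurophil granules with Mpo and Elane in the promyelocyte, specific granules with Ltf, Lcn2, Camp and Ngp in the myelocyte, and gelatinase granules with Mmp9 later. The transcription factor C/EBPε drives many specific granule genes, and their transcripts are largely gone from mature blood neutrophils. S100a8 and S100a9 pair to form calprotectin, a calcium-binding protein that fills the neutrophil cytosol and acts as an alarmin on Tlr4 and on Ager, the receptor also called RAGE. Csf3r, the receptor of the growth factor G-CSF, and Cxcr2, the receptor of Cxcl1, Cxcl2 and Cxcl5, govern the production of neutrophils and their exit from marrow. Lcn2 and Ltf are also made by glandular and airway epithelium, where they bind bacterial iron carriers and iron.

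The promoters of 4 specific granule genes are shown because these genes moved together in the CD4 T cell libraries and apart in whole lung. Sequences are from RefSeq on GRCm38.p6, which is not GRCm39, the build of the counts. Each window runs from 250 bases before the annotated start to 50 after it, 5′ to 3′ on the gene's strand. Capitals mark matches to TTGCNNAA, a motif of the C/EBP family, or to its reverse complement TTNNGCAA. The windows are chr9:110419558-110419857 on the plus strand for Ngp, chr9:109849407-109849706 on the minus strand for Camp, chr9:111019042-111019341 on the plus strand for Ltf, and chr2:32387690-32387989 on the minus strand for Lcn2.
Ngp: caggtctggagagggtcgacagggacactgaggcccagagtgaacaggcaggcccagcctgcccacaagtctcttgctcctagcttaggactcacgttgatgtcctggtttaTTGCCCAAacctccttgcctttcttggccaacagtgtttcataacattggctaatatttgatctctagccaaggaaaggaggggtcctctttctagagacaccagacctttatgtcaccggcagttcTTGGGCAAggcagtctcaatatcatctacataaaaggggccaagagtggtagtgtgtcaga
Camp: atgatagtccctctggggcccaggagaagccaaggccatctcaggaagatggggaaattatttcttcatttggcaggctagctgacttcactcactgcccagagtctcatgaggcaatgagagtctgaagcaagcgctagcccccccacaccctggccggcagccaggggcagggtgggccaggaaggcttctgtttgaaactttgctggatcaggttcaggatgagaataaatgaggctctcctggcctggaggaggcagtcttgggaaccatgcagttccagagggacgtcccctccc
Ltf: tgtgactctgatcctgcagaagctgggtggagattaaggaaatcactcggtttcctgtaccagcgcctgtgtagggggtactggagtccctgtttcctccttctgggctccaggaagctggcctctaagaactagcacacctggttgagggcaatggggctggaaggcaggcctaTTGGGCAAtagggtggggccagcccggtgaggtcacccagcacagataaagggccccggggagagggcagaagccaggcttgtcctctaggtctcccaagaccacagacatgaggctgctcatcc
Lcn2: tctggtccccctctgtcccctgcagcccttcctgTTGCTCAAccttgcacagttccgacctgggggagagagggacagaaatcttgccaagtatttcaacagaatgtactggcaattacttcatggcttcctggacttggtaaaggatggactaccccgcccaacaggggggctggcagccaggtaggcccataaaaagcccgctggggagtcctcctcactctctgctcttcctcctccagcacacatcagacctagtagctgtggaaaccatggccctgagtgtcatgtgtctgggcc
The Ngp window held 2 matches, TTGCCCAA beginning at -138 and TTGGGCAA beginning at -11, counted from the start as +1. Ltf had TTGGGCAA at -75 and Lcn2 had TTGCTCAA at -216, and the Camp window held none. The motif was present in 6 of the 10 member windows (Lcn2, S100a9, Mmp8, Ngp, Ltf and Retnlg) and in 10.8% of all 32851 promoter windows of the same length. The letters TATAAA, on either strand, were present in the windows of S100a8, S100a9 and Mmp8, against 13.6% of all windows. They began at -30 in S100a8 and at +1 in S100a9, and as the reverse complement TTTATA at -3 in Mmp8. GAGGAAGT, a core bound by factors of the ETS family, was present on either strand in the windows of S100a8 and Mmp8, against 3.2% of all windows. A match is a stretch of letters and not a site shown to be bound.

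Depth, as the summed count of a library, was 29650148 to 43447855 in propranolol lung and from 33232082 to 47618634 in untreated lung, from 36277687 to 46407803 and from 36371431 to 48306925 in propranolol and untreated libraries labelled monocytes, and from 27742422 to 42484125 and from 17625672 to 35600275 in propranolol and untreated CD4 T cell libraries. Levels are CPM, a gene's count scaled to 1e6 counts of its library, and changes are log2 ratios of propranolol over untreated with a standard error (SE) from a fit with trimmed-mean (TMM) scaling. A gene was called where its adjusted p, from edgeR's quasi-likelihood test with Benjamini-Hochberg adjustment over all genes tested, was below 0.05. The 8 melanocyte markers summed to 941 to 8760 CPM in propranolol lung and to 13600 to 20100 CPM in untreated lung, so tumour RNA was a smaller share in the treated lungs. The libraries labelled monocytes held 1450 to 1750 CPM (propranolol) and 1290 to 1560 CPM (untreated) of 7 classical monocyte markers. They also held 4270 to 4310 CPM and 5620 to 5740 CPM of 7 endothelial markers and 4590 to 6650 CPM and 3670 to 4350 CPM of the melanocyte markers. Of 7 airway secretory markers they held 4030 to 4550 CPM and 4330 to 6090 CPM. Of 7 alveolar type 2 markers they held 3820 to 4340 CPM and 4240 to 4530 CPM, so they are a mixture. The CD4 T cell libraries held 2490 to 2670 CPM (propranolol) and 2380 to 2420 CPM (untreated) of 7 T cell markers. They had 0 counts of the lung epithelial genes Sftpc and Scgb1a1 and of the melanocyte gene Tyrp1 in all 8 libraries, which allows at most 0.17 CPM in the shallowest of them. Other genes of the same lists were present. The 7 alveolar type 2 markers summed to 46.8 to 50.4 CPM with propranolol and to 147 to 152 CPM untreated. The 8 melanocyte markers summed to 5.11 to 7.84 CPM and to 13.2 to 15.9 CPM. In bulk RNA such as this, fewer cells of a type and less RNA per cell cannot be told apart.

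The members reached different heights in the 3 kinds of material. S100a8 averaged 173 ± 34.5 CPM in propranolol and 43.7 ± 6.36 CPM in untreated CD4 T cell libraries, and 54.1 ± 10.4 CPM in propranolol and 80.8 ± 37.9 CPM in untreated libraries labelled monocytes (SD, n = 4 each). In lung it averaged 20.5 ± 4.9 CPM with propranolol and 3.63 ± 1.07 CPM untreated (n = 5 each). Ordered by mean, propranolol CD4 T cell libraries stood apart at the top and both lung groups apart at the bottom. The propranolol libraries labelled monocytes overlapped their neighbours on either side, the untreated libraries labelled monocytes above and the untreated CD4 T cell libraries below. Ngp, a cystatin-related granule protein of mouse neutrophil precursors, spanned a wider range. It averaged 394 ± 43.5 CPM in propranolol and 70.8 ± 10.5 CPM in untreated CD4 T cell libraries, and 15.6 ± 6.81 CPM in propranolol and 56.0 ± 35.6 CPM in untreated libraries labelled monocytes (SD, n = 4 each). In lung it averaged 5.36 ± 3.01 CPM with propranolol and 0.44 ± 0.222 CPM untreated (n = 5 each). The untreated libraries labelled monocytes overlapped both neighbours in the order of means, and the other neighbouring groups were apart.

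Lcn2, which encodes a protein that captures bacterial siderophores, was ordered differently. In lung it averaged 89.9 ± 7.12 CPM with propranolol and 120 ± 92.3 CPM untreated (SD, n = 5 each). In CD4 T cell libraries it averaged 116 ± 10.2 CPM with propranolol and 18 ± 2.62 CPM untreated, and in libraries labelled monocytes 31.4 ± 2.8 CPM with propranolol and 46.1 ± 12.4 CPM untreated (n = 4 each). Untreated lung had the highest mean and overlapped propranolol CD4 T cell libraries, the next in order. The 2 groups labelled monocytes overlapped each other, and untreated CD4 T cell libraries were apart at the bottom. Csf3r was highest in the libraries labelled monocytes, at 108 ± 7.65 CPM with propranolol and 116 ± 26.9 CPM untreated (n = 4 each), which overlapped. In lung it averaged 51.6 ± 11.6 CPM with propranolol and 9.76 ± 2.42 CPM untreated (n = 5 each), and in CD4 T cell libraries 27 ± 3.85 CPM with propranolol and 9.58 ± 1.65 CPM untreated (n = 4 each). The 2 last groups in order, untreated lung and untreated CD4 T cells, overlapped.

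Divided by exon length (GENCODE M21 on GRCm38, in CPM per kilobase), S100a9 was the highest member in 5 of the 6 groups, from 64.9 in propranolol lung to 585 in propranolol CD4 T cell libraries. In untreated lung Lcn2 led at 45.6 CPM per kilobase, and S100a9 followed at 10.8. Camp, the single cathelicidin gene of the mouse, was the lowest member of both lung groups on this scale, at 1.81 in propranolol and 0.169 in untreated lung. In propranolol CD4 T cell libraries it was number 4 of the 10, at 100 CPM per kilobase. Cxcr2 was the lowest member in both CD4 T cell groups, at 1.86 CPM per kilobase with propranolol and 0.717 untreated.

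**Figure D1:**
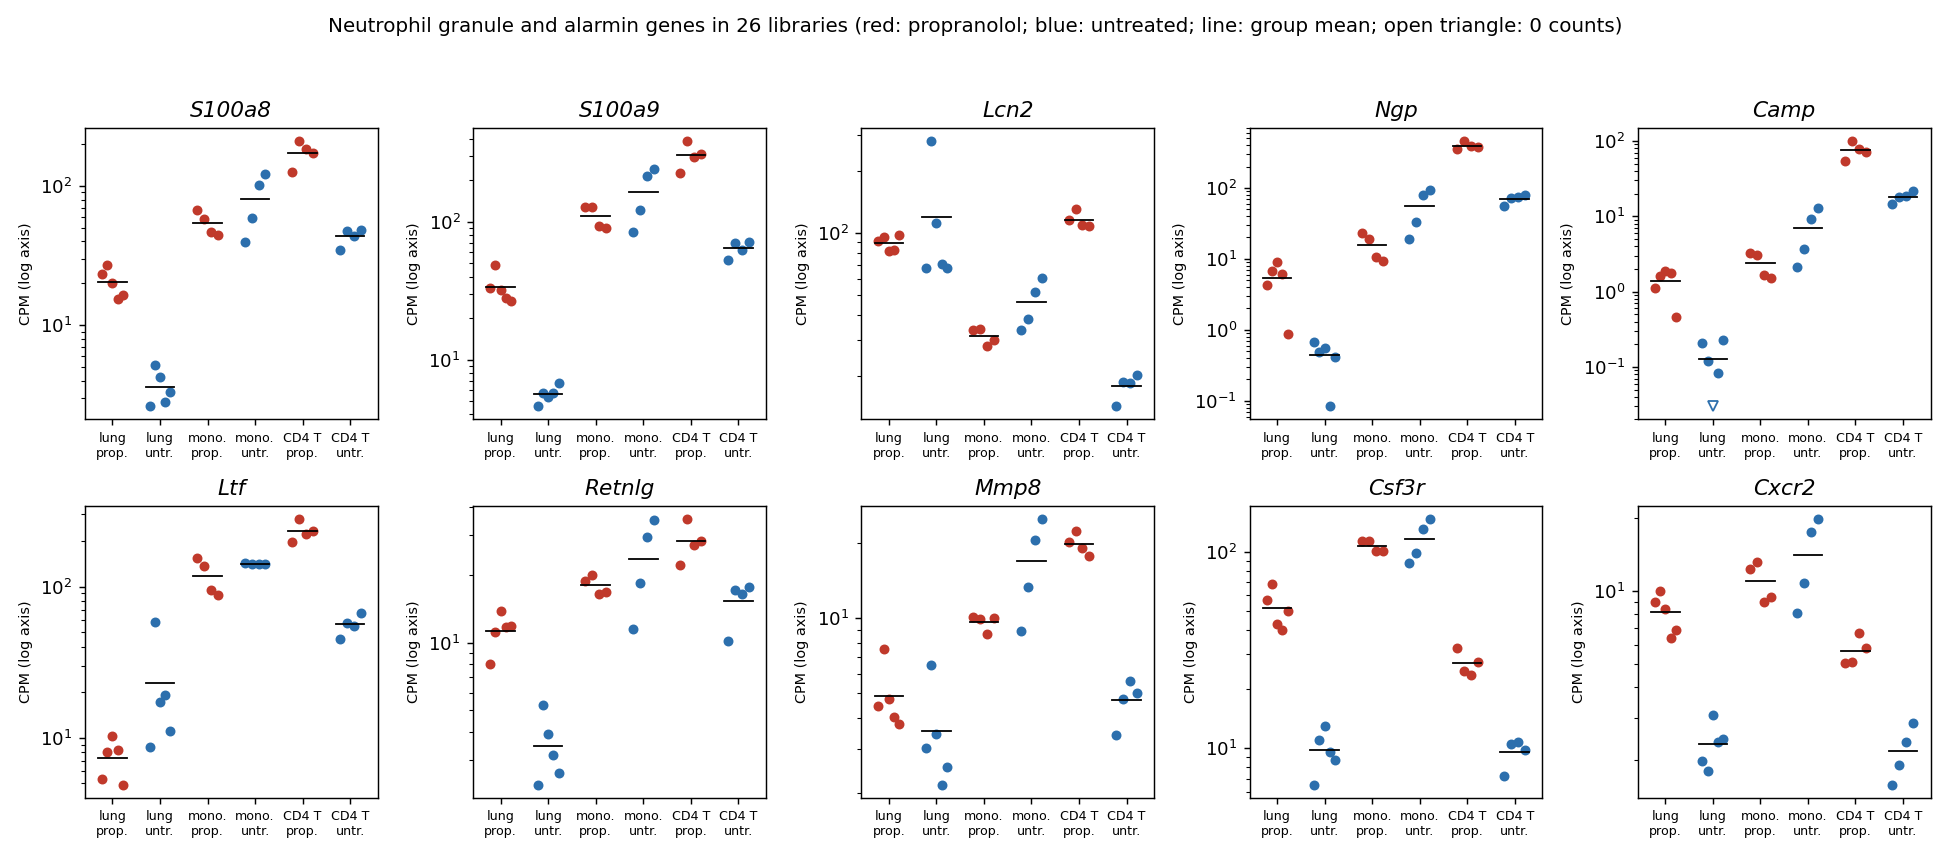
Level of each member in all 26 libraries, in CPM on a log axis, with propranolol libraries in red left of untreated libraries in blue and a line at each group mean. The 8 CD4 T cell libraries fall into separate treatment groups for every member, while the 8 libraries labelled monocytes overlap for every member.

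**Figure D2:**
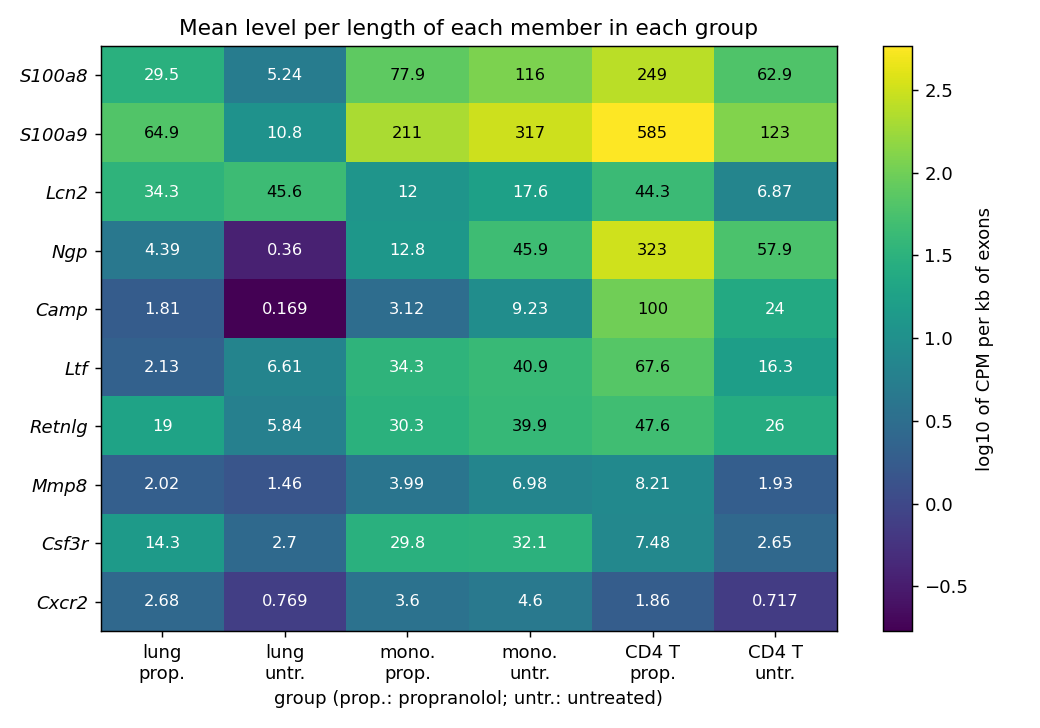
Mean level of each member in each group per kilobase of exons, coloured by log10 and printed as CPM per kilobase. S100a9 leads in all groups except untreated lung, where Lcn2 leads at 45.6 CPM per kilobase.

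The untreated groups set the levels from which the drug groups differed. Against untreated lung, 9 members were higher in the untreated libraries labelled monocytes and 1, Lcn2, was lower, where 65.4% of the 18259 genes tested were called, 31.9% higher and 33.6% lower. None of the 10 overlapped, against 22.5% of genes apart and higher and 37.9% apart and lower. The largest of these differences was that of Ngp, at 7.19 ± 0.57 on the log2 scale (SE, adjusted p = 1.09e-06). S100a9 was 5.04 ± 0.29 higher (adjusted p = 1.31e-07) and Lcn2 1.22 lower, at -1.22 ± 0.44 (adjusted p = 0.0294). The Lcn2 call was lost with voom quality weights (-0.54, adjusted p = 0.0521), with close monocyte libraries summed (adjusted p = 0.13) and when any of untreated monocyte libraries 1, 2 or 3 was left out. In untreated CD4 T cell libraries against untreated lung, 6 members were higher, Lcn2 was lower and Mmp8, Csf3r and Cxcr2 were not called, where 83.9% of the 19078 genes tested were called, 39.9% higher and 44% lower. Of the members 5 were apart and higher and Lcn2 apart and lower, against 39.9% and 38.6% of genes, and Ltf, Mmp8, Csf3r and Cxcr2 overlapped. Ngp was higher by 7.27 ± 0.29 (adjusted p = 5.39e-10) and Camp by 7.005 ± 0.37 (adjusted p = 5.79e-09), and Lcn2 differed by -2.84 ± 0.46 (adjusted p = 0.000113). The Ltf difference of 1.19 ± 0.47 (adjusted p = 0.0327) was lost when any of 7 single libraries was left out. Mmp8 (0.31 ± 0.32, adjusted p = 0.378) was called higher without untreated lung library 2 (0.67, adjusted p = 0.0164) and with voom quality weights (0.80, adjusted p = 0.00209). All 5 azurophil granule genes listed were also higher in untreated CD4 T cell libraries, with Mpo, the myeloperoxidase gene, at 60.4 to 75.8 CPM there and at 0 to 0.131 CPM in untreated lung.

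In whole lung, 7 of the 10 members were higher with propranolol and 1 was lower. Both alarmin genes, Ngp, Camp, Retnlg, Csf3r and Cxcr2 rose, Ltf fell, and Lcn2 and Mmp8 did not pass the test. These counts stand against a background in which 70.8% of the 18639 genes tested were called, 35.5% higher and 35.3% lower. The median log2 change was 1.92 over the members and 0.026 over all genes tested. The 7 members that rose had no library in common range between the groups, which held for 33.7% of genes in the same direction and 18.2% in the other, and the other 3 members overlapped.

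S100a8 had 23.2, 27.3, 20.0, 15.4 and 16.5 CPM in the propranolol lungs, against 2.63, 5.18, 4.26, 2.81 and 3.30 CPM in untreated lungs. Every propranolol library was above every untreated one, and the change was 2.31 ± 0.22 (adjusted p = 5.67e-05). S100a9, its partner in calprotectin, had 33.2, 48.9, 32.2, 28.2 and 26.8 CPM in propranolol lungs, against 4.58, 5.72, 5.33, 5.75 and 6.78 CPM in untreated lungs. The groups were again apart, with propranolol library 2 highest, and the change was 2.40 ± 0.17 (adjusted p = 2.7e-05).

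Among granule genes, Ngp had 4.28, 6.64, 8.93, 6.08 and 0.868 CPM in propranolol lungs, against 0.676, 0.481, 0.549, 0.084 and 0.409 CPM in untreated lungs. Propranolol library 5 lay close above the untreated libraries and the other 4 far above them. The change of Ngp was 3.44 ± 0.60 (adjusted p = 0.000571). Camp, whose peptide kills bacteria, rested on few reads: 34, 48, 81, 77 and 18 counts in propranolol lungs, against 8, 4, 0, 4 and 10 counts in untreated lungs. The same propranolol library 5 was lowest in its group, the groups did not overlap, and the change was 3.20 ± 0.57 (adjusted p = 0.000655). Mpo, made earlier in the same lineage, was also lowest in propranolol library 5, with 0.428, 0.506, 0.69, 0.648 and 0.0766 CPM in propranolol lungs and at most 0.131 CPM in untreated lungs. Ly6g, a surface marker of mouse neutrophils, had 6, 8, 5, 8 and 8 counts in propranolol lungs, against 0, 0, 3, 0 and 2 in untreated lungs. These few reads were 0.115 to 0.27 CPM in propranolol lungs and 0 to 0.0784 CPM in untreated lungs, with no overlap.

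Ltf, the gene of the iron-binding lactoferrin, went the other way from Ngp and Camp. It had 5.34, 7.99, 10.2, 8.28 and 4.90 CPM in propranolol lungs, against 8.68, 58.1, 17.2, 19.2 and 11 CPM in untreated lungs. Untreated library 2 stood far above the rest, and the lowest untreated library lay within the propranolol range. The change was -1.82 ± 0.48 (adjusted p = 0.00585), and without untreated library 2 it was -1.12 (adjusted p = 0.0041). Lcn2 had 91.7, 95.3, 82.1, 82.8 and 97.6 CPM in propranolol lungs, against 67.2, 281, 112, 70.6 and 67.5 CPM in untreated lungs. The same untreated library 2 was highest, 3 untreated libraries lay below every propranolol library, and the change of -0.60 ± 0.37 did not pass the test (adjusted p = 0.165). Without that library the Lcn2 change was -0.01 (adjusted p = 0.975).

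Markers of airway secretory cells, which can make both proteins, moved as well, against a background of 35.5% of genes higher and 35.3% lower. Of 7 genes, 4 were lower with propranolol: Muc5b by -2.999 ± 0.36, Reg3g by -6.02 ± 0.87, Scgb3a1 by -3.12 ± 0.57 and Bpifa1 by -4.61 ± 0.90, while Scgb1a1, the main club cell secretion, was higher by 0.90 ± 0.33 (adjusted p = 0.0316). The 7 genes summed to 8170 to 16300 CPM in propranolol lungs and to 2450 to 8980 CPM in untreated lungs, and no member of the list was at 0 in all libraries of a group. Scgb1a1 was lowest in untreated library 2, at 2270 CPM, and Bpifa1 there was 4.78 CPM, against 31.0 CPM in untreated library 4. The part of these cells in the Ltf and Lcn2 values was not tested.

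**Figure D3:**
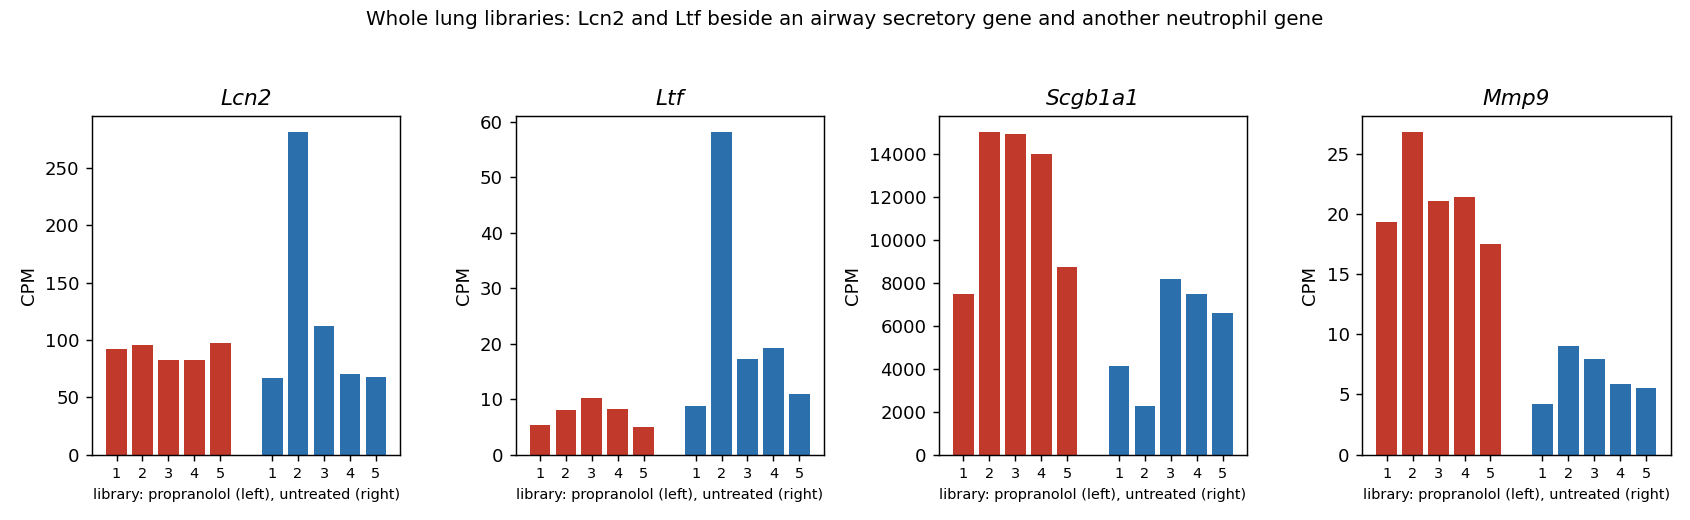
CPM of Lcn2, Ltf, the club cell gene Scgb1a1 and the gelatinase granule gene Mmp9 in the 5 propranolol lungs (red, left) and 5 untreated lungs (blue, right). Untreated library 2 has 281 CPM of Lcn2 and 58.1 CPM of Ltf, with the lowest Scgb1a1 of the 10 lungs (2270 CPM) and 9.03 CPM of Mmp9.

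Mmp8, the neutrophil collagenase, had 4.45, 7.52, 4.74, 4.03 and 3.78 CPM in propranolol lungs, against 3.02, 6.50, 3.45, 2.16 and 2.55 CPM in untreated lungs. Library 2 was highest in each group, the groups overlapped through it, and the change of 0.29 ± 0.31 did not pass the test (adjusted p = 0.416). Leaving out untreated library 2 gave 0.62 and a call (adjusted p = 0.0358). Retnlg, which encodes a resistin-like hormone of mouse myeloid cells, had 8.01, 11.1, 13.8, 11.7 and 11.8 CPM in propranolol lungs, against 2.34, 5.27, 3.92, 3.15 and 2.64 CPM in untreated lungs. All propranolol values were higher, with a change of 1.52 ± 0.22 (adjusted p = 0.000233).

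The 2 receptor genes rose with the alarmins. Csf3r had 56.8, 68.7, 42.7, 40.0 and 49.9 CPM in propranolol lungs, against 6.53, 11, 13, 9.58 and 8.71 CPM in untreated lungs, a change of 2.22 ± 0.19 (adjusted p = 4.22e-05). Cxcr2 had 9.03, 10, 8.42, 6.41 and 6.92 CPM in propranolol lungs, against 1.98, 1.81, 3.08, 2.39 and 2.46 CPM in untreated lungs, a change of 1.61 ± 0.17 (adjusted p = 7.95e-05). Neither gene overlapped between the groups.

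Tumour content differed between the lung groups, and 2 other fits bear on the members. With the mean melanocyte level as a covariate, 948 genes were higher and 987 lower, and 4 members stayed called: S100a8 at 2.43, S100a9 at 2.43, Csf3r at 2.46 and Cxcr2 at 1.71. Ngp (1.92, adjusted p = 0.156), Camp (2.10, adjusted p = 0.121), Ltf (-2.72, adjusted p = 0.0637) and Retnlg (1.16, adjusted p = 0.0528) then missed the threshold. The SE of Ngp was 0.87 in this fit and 0.60 without the covariate. Melanocyte sums did not overlap between the groups (941 to 8760 CPM against 13600 to 20100 CPM). Tumour share and treatment therefore cannot be told apart by this fit. Scaling on 27 genes of resident lung cells moved the median of all genes to -0.70 and gave 1931 genes higher and 10602 lower, against 6614 and 6575 with TMM. Under it the same 7 members were called higher, with S100a9 at 1.67 and Cxcr2 at 0.93, while Lcn2 was called lower at -1.39 (adjusted p = 0.0161) and Mmp8 turned to -0.51 (adjusted p = 0.22).

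Other neutrophil genes in lung were read from lists written for neutrophils. Of 12 further granule genes 11 were tested, with 9 higher and 0 lower (median 0.93). Padi4, the enzyme of histone citrullination in extracellular traps, rose by 1.37 ± 0.17, Mmp9 by 1.52 ± 0.20, Cybb, the oxidase subunit, by 1.204 ± 0.16, and Itgb2l, an integrin subunit, by 2.31 ± 0.31. Of 24 genes of mature neutrophils 16 were tested, with 9 higher and 0 lower (median 0.64). Slfn4 rose by 2.20 ± 0.19, Ifitm6 by 1.89 ± 0.26 and Fpr1, a receptor of formylated peptides, by 0.76 ± 0.15. The single azurophil gene that could be tested, Prtn3, rose by 1.06 ± 0.35 (adjusted p = 0.0173). Lists of other cells moved too, with 8 of 8 B cell genes (median 1.78) and 7 of 7 T cell genes (median 1.28) higher. So were 7 of 7 endothelial genes (median 0.77), 7 of 7 alveolar type 2 genes (median 0.75) and 5 of 7 classical monocyte genes (median 0.94). Of 7 fibroblast genes 3 were higher and 3 lower, and 8 of 8 melanocyte genes were lower. Of all genes tested, 35.5% were higher and 35.3% lower.

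Of 12 upstream ligands and factors, 10 were tested in lung, with 3 higher and 0 lower. Over all genes tested in lung, 35.5% were higher and 35.3% lower. Ppbp, a platelet chemokine that acts on Cxcr2, rose by 1.89 ± 0.22. Gfi1, a repressor needed for granulopoiesis, rose by 1.08 ± 0.33 and Csf2, the gene of GM-CSF, by 0.83 ± 0.30. Cxcl1 and Cxcl2, the main ligands of Cxcr2 in mice, did not pass the test, with changes of 0.01 ± 0.32 and -0.80 ± 0.59. Csf3, the ligand of Csf3r, was at 0 to 0.0989 CPM in propranolol lungs and 0 to 0.104 CPM in untreated lungs and was not tested. Among 6 receptors of the products, 4 were higher and 1 lower (median 0.74). Lrp1, a lipoprotein receptor family member that takes up lactoferrin, rose by 1.07 ± 0.14 and Slc22a17, a receptor of Lcn2, by 1.08 ± 0.15. Ager rose by 0.63 ± 0.17 and Tlr4 fell by 0.42 on the log2 scale. Ager also marks alveolar type 1 cells, of whose 7 markers 6 were higher.

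In the libraries labelled monocytes, no member was higher with propranolol, 4 were lower and 6 did not pass the test. The 4 were Lcn2, Ngp, Camp and Mmp8. The background was 30.5% of 18236 tested genes called, 16.1% lower and 14.3% higher. S100a8 (-0.62 ± 0.28) and S100a9 (-0.63 ± 0.27) had changes near that of Lcn2 (-0.60 ± 0.15) with a larger SE, and were not called. In a fit that shared its spread with lung, Lcn2 (adjusted p = 0.306), Camp (adjusted p = 0.05) and Mmp8 (adjusted p = 0.0972) were no longer called, and with limma-voom Camp was not (adjusted p = 0.0798). With the library number as a block in the edgeR fit none of the 4 was called, from adjusted p = 0.0609 for Lcn2 to 0.178 for Camp. The log2 changes of all 10 members were below 0, with a median of -0.61, against 0.023 over all genes. All 10 members overlapped between the groups, where 13.5% of genes were apart and lower and 19.8% apart and higher.

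Ngp had 23.5, 19.1, 10.5 and 9.40 CPM in propranolol libraries, against 19.0, 32.8, 80.1 and 92.4 CPM in untreated libraries. Untreated libraries 3 and 4 stood above all others, and untreated library 1 lay inside the propranolol range. The change was -1.89 ± 0.46 (adjusted p = 0.00999). Camp had 3.25, 3.07, 1.64 and 1.5 CPM in propranolol libraries, against 2.14, 3.73, 9.26 and 12.9 CPM in untreated libraries, with the same split and a change of -1.62 ± 0.48 (adjusted p = 0.0276). Mmp8 had 10.1, 9.94, 8.62 and 10 CPM in propranolol libraries, against 8.91, 13.3, 20.5 and 24.9 CPM in untreated libraries. Its propranolol libraries were close together and its untreated ones far apart, for a change of -0.85 ± 0.24 (adjusted p = 0.0225). Lcn2 had 33.5, 33.9, 28.0 and 30.1 CPM in propranolol libraries, against 33.5, 38.3, 51.8 and 60.6 CPM in untreated libraries. Its change was -0.60 ± 0.15 (adjusted p = 0.0115), although untreated library 1 equalled propranolol library 1.

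The alarmin and receptor genes had the same layout without a call. S100a9 had 129, 129, 92.8 and 89.5 CPM in propranolol libraries, against 84.0, 121, 214 and 242 CPM in untreated libraries, a change of -0.63 ± 0.27 (adjusted p = 0.107). Csf3r had 114, 114, 101 and 101 CPM in propranolol libraries, against 88.0, 98.6, 131 and 146 CPM in untreated libraries, a change of -0.15 ± 0.13 (adjusted p = 0.396). In Csf3r the untreated libraries lay on either side of the propranolol ones, and in S100a9 untreated library 2 also lay among them. Ltf was the exception in shape, with 154, 136, 95.2 and 87.4 CPM in propranolol libraries, against 144, 140, 140 and 140 CPM in untreated libraries. Here the untreated libraries were nearly equal and the propranolol ones spread, for a change of -0.31 ± 0.15 (adjusted p = 0.138). The airway secretory gene Bpifa1 had 874, 821, 592 and 582 CPM in propranolol libraries, against 546 to 592 CPM in untreated libraries. Scgb1a1, another airway gene, went the other way within propranolol libraries, at 2530, 2610, 3320 and 3350 CPM. The part of airway cells in these Ltf values was not tested.

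**Figure D4:**
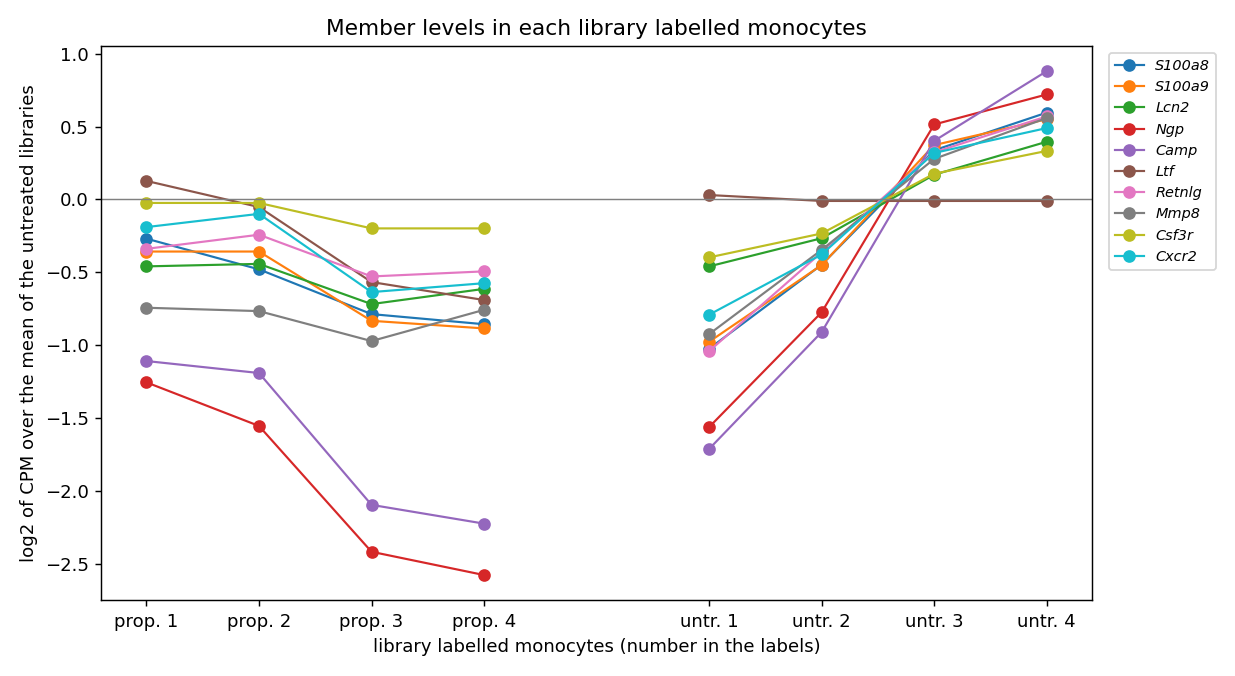
Level of each member in every library labelled monocytes, as log2 of its CPM over the mean of the 4 untreated libraries (lines only join the values of a gene, since libraries have no order). Untreated libraries 3 and 4 lie above untreated 1 and 2 for all members but Ltf, and propranolol libraries 1 and 2 lie above propranolol 3 and 4 in mean for all 10.

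Within each treatment the libraries numbered 1 and 2 resembled each other, and so did 3 and 4. Propranolol libraries 1 and 2 averaged 1.07 to 2.14 times the CPM of propranolol 3 and 4 in all 10 members, and untreated libraries 3 and 4 averaged 1.48 to 3.78 times that of untreated 1 and 2 in 9 members, with Ltf at 0.986. Set against each other by number, propranolol over untreated was above 1 for 7 members and below 1 for 3 in libraries 1 and 2 (0.822 to 1.35), and below 1 for all 10 in libraries 3 and 4 (0.116 to 0.732). Without untreated libraries 3 and 4, no member was called and S100a8 (0.05), S100a9 (0.03), Retnlg (0.19), Csf3r (0.13) and Cxcr2 (0.14) changed sign. Without untreated libraries 1 and 2, 9 members were called lower, and with each close pair summed to 1 library none was, Ngp having an adjusted p of 0.115. Leaving out untreated library 1 gave 8 members lower, and leaving out untreated library 3, untreated library 4 or propranolol library 3 gave 2, Lcn2 and Ngp.

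Some genes of other cells moved with the same split. Cd3e, a T cell receptor subunit, had 83.5, 75.0, 24.6 and 19.8 CPM in propranolol libraries and 7.45, 13, 29.4 and 39.0 CPM in untreated libraries. The 7 T cell markers summed to 182 to 765 CPM in propranolol libraries and to 84.9 to 417 CPM in untreated libraries, with no marker at 0. Mpo followed at 8.88, 7.24, 2.63 and 2.62 CPM in propranolol libraries and 2.45, 3.78, 4.86 and 5.67 CPM in untreated libraries. The 5 azurophil genes summed to 5.84 to 16.5 CPM with propranolol and to 6.38 to 11.9 CPM untreated, and 0 of the 4 tested was called. The classical monocyte gene Ly6c2 lacked the split, with 51.8, 53.9, 60.6 and 60.1 CPM in propranolol libraries and 34.0, 34.0, 34.6 and 33.2 CPM in untreated libraries. The part of these cells in the member changes was not tested.

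Other neutrophil genes in the libraries labelled monocytes went both ways, against a background of 14.3% of genes higher and 16.1% lower. Of 12 further granule genes, 3 were higher and 1 lower. Chil3, a chitinase-like protein that monocytes also make, rose by 0.69 ± 0.10, Cybb by 0.52 ± 0.12 and Pglyrp1 by 0.46 ± 0.11, while Itgb2l fell by 1.73 on the log2 scale. Of 19 mature neutrophil genes tested, 4 were higher, among them Ifitm6 by 0.71 ± 0.08 and Cxcr1 by 1.03 ± 0.23, and 2 were lower, Clec4d at -0.26 ± 0.06 and Slfn4 at -0.63 ± 0.17. Cxcl2, a chemokine of activated monocytes, was abundant at 244 to 263 CPM with propranolol and 311 to 341 CPM untreated, and fell by 0.39 on the log2 scale (adjusted p = 2.66e-05). Of the 11 upstream genes tested, 2 were higher and 3 lower.

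In the CD4 T cell libraries all 10 members were higher with propranolol and none overlapped between the groups. The background there was 60% of 16550 tested genes called, 30.1% higher and 29.9% lower. Separate groups were found for 15.9% of genes in the higher and 46.3% in the lower direction, and the median log2 change was 2.44 over the members and -0.038 over all genes. Changes ran from 1.25 for Retnlg to 3.07 for Lcn2. The TMM factors were 0.867 to 0.879 in propranolol and 1.14 to 1.15 in untreated libraries, so ratios of the CPM below are smaller than the fitted changes.

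Lcn2, with the largest change, had 116, 131, 110 and 108 CPM in propranolol libraries, against 14.3, 18.7, 18.6 and 20.4 CPM in untreated libraries. Its change was 3.07 ± 0.11 (adjusted p = 8.48e-10), and the libraries of each group lay close together. Ngp had 354, 456, 387 and 379 CPM in propranolol libraries, against 55.9, 72.8, 73.8 and 80.6 CPM in untreated libraries, a change of 2.86 ± 0.12 (adjusted p = 2.51e-09). Ltf had 198, 278, 224 and 233 CPM in propranolol libraries, against 45.1, 57.6, 55.1 and 67.0 CPM in untreated libraries, a change of 2.44 ± 0.13 (adjusted p = 2.23e-08). In both genes propranolol library 2 was the highest and untreated library 1 the lowest. Camp had 54.5, 99.8, 77.4 and 71.8 CPM in propranolol libraries, against 14.5, 17.8, 18.8 and 21.5 CPM in untreated libraries, a change of 2.44 ± 0.18 (adjusted p = 3.36e-07). Mmp8 had 20.3, 22.3, 19.2 and 17.8 CPM in propranolol libraries, against 3.40, 4.74, 5.62 and 5 CPM in untreated libraries, a change of 2.45 ± 0.15 (adjusted p = 8.02e-08).

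The alarmin genes rose to a like degree. S100a8 had 127, 210, 183 and 172 CPM in propranolol libraries, against 34.6, 47.5, 43.9 and 48.7 CPM in untreated libraries, a change of 2.37 ± 0.15 (adjusted p = 1.19e-07). S100a9 had 225, 386, 298 and 313 CPM in propranolol libraries, against 53.0, 69.8, 62.3 and 71.4 CPM in untreated libraries, a change of 2.64 ± 0.15 (adjusted p = 5.23e-08). The groups were apart in both genes, with propranolol library 2 highest. Retnlg had 22.2, 35.3, 27.1 and 28.4 CPM in propranolol libraries, against 10.2, 17.1, 16.5 and 17.7 CPM in untreated libraries. It had the smallest change, 1.25 ± 0.18 (adjusted p = 0.000102), and its groups came closest. Csf3r had 32.2, 24.6, 23.6 and 27.5 CPM in propranolol libraries, against 7.21, 10.5, 10.8 and 9.76 CPM in untreated libraries, a change of 1.87 ± 0.14 (adjusted p = 5.53e-07). Cxcr2 had 5.04, 5.08, 6.72 and 5.80 CPM in propranolol libraries, against 1.59, 1.92, 2.39 and 2.84 CPM in untreated libraries, a change of 1.74 ± 0.21 (adjusted p = 2.69e-05). Neither receptor overlapped between the groups.

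**Figure D5:**
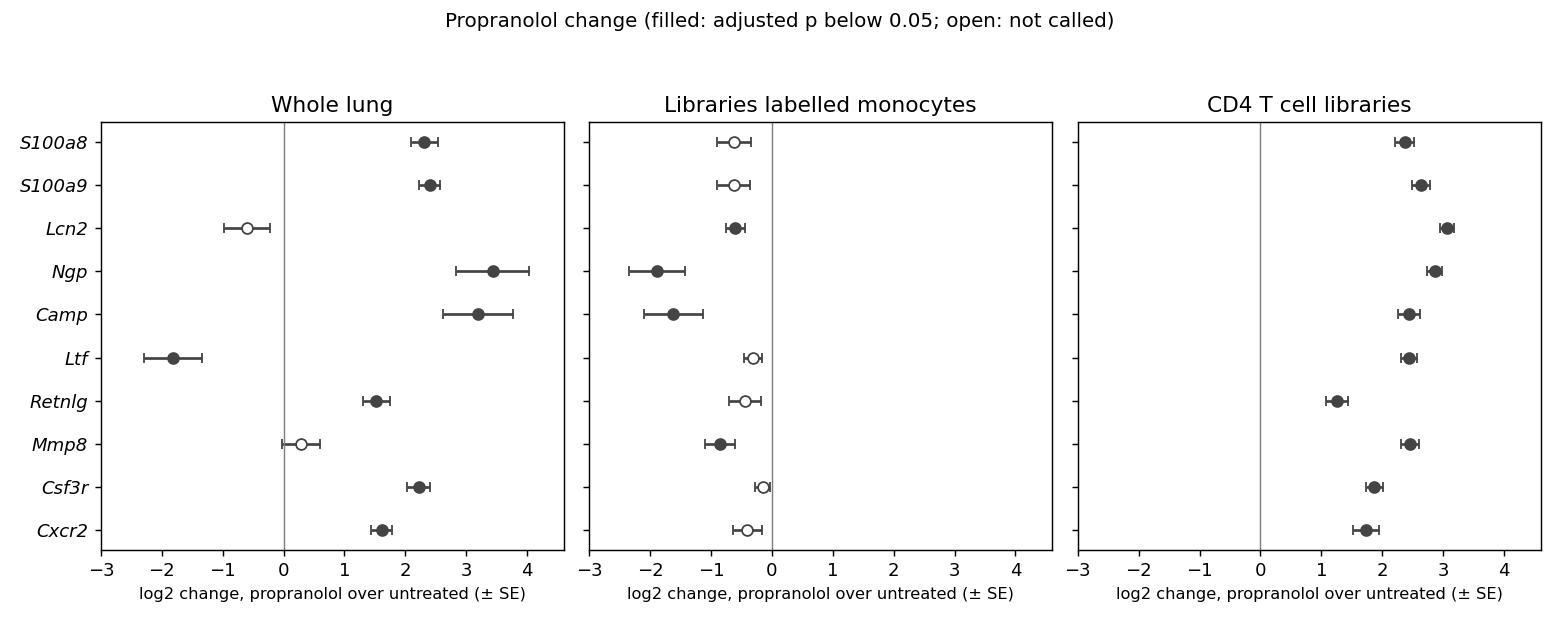
Log2 change of each member, propranolol over untreated, with its standard error in whole lung, libraries labelled monocytes and CD4 T cell libraries, filled where the adjusted p is below 0.05. All 10 members lie right of 0 in CD4 T cell libraries and all 10 left of 0 in the libraries labelled monocytes, while lung has Ltf at -1.82 and the other called members above 0.

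Earlier and later genes of the neutrophil lineage did not move alike in the CD4 T cell libraries. The 5 azurophil genes summed to 104 to 144 CPM in propranolol and to 105 to 129 CPM in untreated libraries. On the TMM scale 3 of them were higher, Prtn3 by 0.57 ± 0.14, Elane by 0.68 ± 0.18 and Mpo by 0.32 ± 0.09, each less than any member. In CPM, Mpo had 64.9, 76.3, 61.4 and 64.0 in propranolol libraries, against 60.4, 68.8, 73.6 and 75.8 in untreated libraries, with the groups overlapping. Of 12 further granule genes, 11 were higher and 1, Slpi, was lower by 0.31 ± 0.09. Over all genes tested there, 30.1% were higher and 29.9% lower. Chil3 rose by 2.54 ± 0.10, Hp, the haptoglobin gene, by 1.79 ± 0.10, Lyz2, a lysozyme gene of all myeloid cells, by 1.65 ± 0.10 and Cd177, a neutrophil surface protein, by 1.85 ± 0.13.

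Of 20 mature neutrophil genes tested, 16 were higher and 2 lower, among them Cxcr1 at -3.31 ± 0.60, with a median of 2.49. Of all genes tested, 30.1% were higher and 29.9% lower. In plain CPM, without TMM scaling, the 24 listed genes summed to 505 to 537 with propranolol and to 534 to 573 untreated. TMM scaling raises propranolol over untreated here, so these sums are not on the scale of the calls. Clec4e, a receptor of damaged cells and fungi on myeloid cells, rose by 5.73 ± 0.28, Fpr1 by 5.14 ± 0.27, Clec4d by 3.73 ± 0.20 and Il1r2, a decoy receptor of interleukin 1, by 2.39 ± 0.10. Ly6g had 1.88, 6.85, 3.57 and 3.05 CPM in propranolol libraries, against 1.02, 0.705, 0.787 and 0.958 CPM in untreated libraries, with no overlap. All 9 upstream genes tested were higher. Gfi1, which T cells also express, rose by 2.50 ± 0.06, Cebpb by 2.31 ± 0.11 and Cxcl2 by 6.92 ± 0.35, with 16.1 to 19.6 CPM in propranolol libraries and 0 to 0.34 CPM in untreated libraries. Il17a, a T cell cytokine that raises neutrophil chemokines in epithelium, had 1.32, 3.60, 2.41 and 3.30 CPM in propranolol libraries and 0 counts in all 4 untreated libraries. It was at least 98.8-fold higher, taking 3 counts over the untreated group as the floor. Of 5 receptors of the products tested, Tlr4 was higher by 1.32 ± 0.22 and 4 were lower, including Ager at -2.58 ± 0.25.

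Other cell types moved in the CD4 T cell libraries too, where 30.1% of all genes tested were higher and 29.9% lower. The 8 B cell markers, all called higher, summed to 461 to 583 CPM with propranolol and to 169 to 218 CPM untreated. The 7 classical monocyte markers, 6 of them called higher, summed to 388 to 425 CPM with propranolol and to 227 to 266 CPM untreated, and the 6 erythroid genes, all called higher, to 329 to 1240 CPM and to 233 to 277 CPM. None of those markers was at 0. The 7 T cell markers, 4 of them called higher, summed to 2490 to 2670 CPM and to 2380 to 2420 CPM. Of 6 eosinophil, mast cell and basophil genes 0 were higher and 2 lower, summing to 64.7 to 81.2 CPM with propranolol and 106 to 124 CPM untreated. Of 7 cytotoxic lymphocyte genes 3 were higher and 2 lower, summing to 148 to 220 CPM with propranolol and 175 to 194 CPM untreated. Igha, the heavy chain gene of immunoglobulin A made by plasma cells, was at 3290 to 6150 CPM with propranolol and 6570 to 6900 CPM untreated, above the summed T cell markers in every library. The part of these cells in the member changes was not tested.

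Whether a member's response differed between materials was tested as an interaction. Between libraries labelled monocytes and lung, the change was lower in the monocyte material for 8 members, higher for Ltf and not called for Lcn2, where 57.4% of 20328 genes were called, 32.3% lower and 25.2% higher. Differences, monocyte minus lung, ran from -1.26 ± 0.44 for Mmp8 (adjusted p = 0.0208) to -5.48 ± 0.84 for Ngp (adjusted p = 5.48e-05). That of Csf3r was -2.49 ± 0.25 (adjusted p = 3.1e-06). Ltf differed by 1.39 ± 0.58 (adjusted p = 0.0479), and without untreated lung library 2 this was 0.66 (adjusted p = 0.105). The Ltf call was also lost without propranolol lung library 2, untreated monocyte library 3 or 4, or propranolol monocyte library 1, 2 or 3, and the Mmp8 call without untreated lung library 1, 4 or 5 or untreated monocyte library 4. Lcn2 differed by -0.11 ± 0.48 (adjusted p = 0.862), and by -0.73 with a call (adjusted p = 0.0117) without untreated lung library 2. With close libraries summed, Mmp8 (-1.07, adjusted p = 0.132) and Ltf (1.59, adjusted p = 0.122) were no longer called.

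Between CD4 T cell libraries and lung, 3 members had a higher change in CD4 T cell libraries, where 56.2% of 20832 genes were called, 24% higher and 32.2% lower. They were Ltf at 4.06 ± 0.58 (adjusted p = 9.43e-06), Lcn2 at 3.50 ± 0.46 (adjusted p = 4.08e-06) and Mmp8 at 1.99 ± 0.39 (adjusted p = 0.000246). These are the 3 members that did not rise in lung. The other 7 were not called, from -0.94 ± 0.57 for Camp to 0.06 ± 0.25 for S100a9. A miss of the threshold does not show that their responses were equal. Without propranolol lung library 5, Ngp (-1.09, adjusted p = 0.0186) and Camp (-1.19, adjusted p = 0.0325) were called lower, as was Csf3r (-0.63, adjusted p = 0.0411) without untreated lung library 3.

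Members also varied among libraries of the same group. In lung, deviations from the group mean of log2 CPM correlated at 0.88 between Ngp and Camp, at 0.81 between Lcn2 and Ltf, at 0.62 between S100a8 and S100a9 and at 0.04 between S100a8 and Camp, over 10 libraries. In the libraries labelled monocytes S100a8 correlated at 0.99 with S100a9, Camp at 0.99 with Ngp and S100a8 at 0.30 with Ltf, over 8 libraries. In CD4 T cell libraries Ltf correlated at 0.96 with Ngp and at 0.84 with Lcn2. Points share their libraries, so these values are descriptions only. Over all 26 libraries and 15542 genes, the genes most like S100a8 were S100a9 (0.891), Mmp9 (0.840), Mmp8 (0.838), Slc2a3 (0.793) and Olfm4 (0.790). Those most like Camp were Ngp (0.893), Cd3d (0.859), S100a9 (0.849), Smarcd2 (0.834) and Skap1 (0.811). For Csf3r they were H2-Q10 (0.872), Slfn4 (0.847), Mmp9 (0.776), Zfp113 (0.771) and Tmem254a (0.757). In the untreated libraries labelled monocytes Camp ran from 2.14 to 12.9 CPM and Cd3d from 3.46 to 20.6 CPM. Whether the likeness of Camp and Cd3d holds without the libraries labelled monocytes was not tested.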

How the data were processed

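The 2 tables that the authors deposited, 1 for lung and monocyte libraries and 1 for CD4 T cell libraries, hold raw counts that were not normalized. Libraries were made from polyadenylated RNA, per the labels' protocols. The submitters' processing notes name STAR 2.7.9, featureCounts, Subread 2.0.3 and GRCm39; the sources used here do not give the strand setting, and overlapping genes are uncertain. Symbols were matched for 52083 genes (94.0%). The members and lists were chosen with earlier results of these data known.

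Groups came from the titles. Genes were kept by filterByExpr (minimum count 10), scaled by TMM and tested by quasi-likelihood in edgeR 4.0.16 (R 4.3.3). Each comparison was fitted with its own groups only, and interactions in 1 fit of 4 groups. CPM are plain. Alternatives used DESeq2 1.42.0, limma 3.58.1, other filters and scalings, a melanocyte covariate, a replicate block, and libraries left out; summing or leaving out close monocyte libraries was added after the data were seen. Scripts were tested on simulated counts. The text names all members and, from each neutrophil list, up to 5 genes with the smallest p per comparison, with others as examples chosen after their values were seen. Likeness was Pearson's r of log2(CPM + 0.5) less the group mean, among genes of mean CPM of at least 1. A gene of the mature neutrophil list is counted but not reported by name here. No library pair agreed within sampling noise by chi-square.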

Additional observations from a re-analysis of the deposited data

Results flagged for a closer look

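Of 60 sets of a member in a group, 7 had a library set apart. The cut-off sets apart about 1 in 20 sets of independent, normally distributed values. These sets share libraries and the members correlate, so the count cannot be judged against that rate. The gap to the next library, as a share of the range, was 0.714 for S100a9 in propranolol lung library 2, 0.743 for Mmp8 in the same library, and 0.793 for Lcn2 and 0.788 for Ltf in untreated lung library 2. It was 0.932 for Ltf in untreated monocyte library 1, whose range is narrow, 0.899 for Mmp8 in propranolol monocyte library 3, the lowest, and 0.849 for Retnlg in untreated CD4 T cell library 1, also the lowest.

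The propranolol change differed between the libraries labelled monocytes and lung, by the interaction test, in 9 members. The log2 differences were -3.06 for S100a8, -3.16 for S100a9, -5.48 for Ngp, -4.95 for Camp, -2.09 for Retnlg, -1.26 for Mmp8, -2.49 for Csf3r, -2.14 for Cxcr2 and 1.39 for Ltf. Between CD4 T cell libraries and lung it differed by 3.50 for Lcn2, 4.06 for Ltf and 1.99 for Mmp8.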

How the results depend on the processing

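All 10 members stayed called higher in CD4 T cell libraries under each alternative, single libraries left out included, except that a 5 CPM filter left 9 members to test. In lung, the melanocyte covariate gave 948 genes higher and 987 lower with 4 members higher and 0 lower, and resident scaling gave 1931 and 10602 with 2 members lower and Mmp8 at -0.51; single libraries left out gave 7 to 8 members higher and 1 lower, from 6001 to 6730 genes higher and 6117 to 6709 lower.

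In the libraries labelled monocytes, members called lower numbered 7 with no filter, 1 in a fit with lung (819 genes higher, 1250 lower), 0 with close libraries summed (409 and 968), 0 without untreated 3 and 4, and 9 without untreated 1 and 2. The signs that changed without untreated 3 and 4 were S100a8 0.0529, S100a9 0.0276, Retnlg 0.19, Csf3r 0.13 and Cxcr2 0.14. Single libraries left out gave 2 to 8 members lower, 1962 to 2384 genes higher and 2452 to 2729 lower. Deviations of same-numbered libraries correlated from -0.29 to 0.35, and from -0.29 to -0.12 in the libraries labelled monocytes. With 4 or 5 libraries in a group, such values cannot decide whether the numbers pair the samples. With the replicate block the monocyte fit gave 1454 genes higher and 0 members (Lcn2 adjusted p = 0.0609, Ngp 0.107, Camp 0.178, Mmp8 0.076), and the lung fit 7 members higher and 1 lower; no other count of members changed under it in lung or CD4 T cells.

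For monocyte minus lung, members higher were 0 with voom quality weights and with close libraries summed (3854 genes lower), and Lcn2 turned to 0.10 with no filter and 0.0817 when summed, and spanned -0.73 to 0.18 with single libraries left out; these libraries left out gave 0 to 1 members higher and 7 to 9 lower. For CD4 T cells minus lung, 2 members were lower with quality weights, and uncalled values turned sign: Cxcr2 0.00582 with DESeq2 size factors and 0.18 with no filter, S100a8 0.11 with no filter, S100a9 -0.0938 with quality weights. With single libraries left out S100a8 spanned -0.27 to 0.0127, S100a9 -0.0728 to 0.23 and Cxcr2 -0.15 to 0.12. Single libraries left out gave 3 members higher and 0 to 2 lower there. Members lower in untreated monocyte libraries against lung were 0 with quality weights and when summed, and 0 to 1 with single libraries left out. In untreated CD4 T cells against lung, Csf3r turned to 0.0696 with quality weights, and single libraries left out gave 5 to 7 members higher. The cause was not tested.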
